A study of Laetiporus sulphureus with 6 samples.

Results

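The genes described here encode the glycoside hydrolase (GH) families that act on the glucans of fungal cell walls in the polypore *Laetiporus sulphureus* ATCC 52600. They are the genes whose domain in the study's supplementary gene table is GH5_15, GH16, GH17, GH30, GH55, GH71, GH72, GH128, GH131 or GH152. That table lists 33 such genes, and 31 of them are among the 10015 genes with deposited counts. GH16 provided 18 of these 31 genes, GH55 and GH71 provided 4 each, GH128 provided 2, and GH5_15, GH17 and GH30 (subfamily GH30_3) provided 1 each. No gene was listed for GH72, GH131 or GH152, and the listed genes g11355 (GH16) and g635 (GH55) are not in the count table and were not analysed here.

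RNA was sequenced from 3 libraries of the pre-inoculum mycelium (T0) and 3 libraries of mycelium on bagasse (BIN). For T0, the strain was grown from 15 agar discs of 8 mm in shaken liquid culture (180 rpm, 30 °C) for 7 days. For BIN, mycelium grown in that way was filtered, washed and moved for 24 h to 100 mL of a mineral medium at pH 7 with 1 g of in natura sugarcane bagasse, the fibrous residue of the cane, not pretreated. Both groups are the same strain, and the bagasse, the change of medium, the transfer and the extra day cannot be told apart as sources of a difference. The labels number the replicates but do not say whether they were separate cultures. The p-values therefore weigh each difference against the spread between these libraries, which may not be a spread between cultures.

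The wall of a basidiomycete is a network of chitin and glucans. Its main glucan is a β-1,3-linked chain with β-1,6-linked branches, and many species add α-1,3-glucan. The hydrolases and transglycosylases of these families cut or rejoin such chains while hyphae grow, branch, age or are recycled, and some of the same enzymes can act on glucans of plants or of other fungi. GH16, GH17, GH55 and GH128 hold β-1,3-glucanases, GH5_15 and GH30_3 hold β-1,6-glucanases, and GH71 holds α-1,3-glucanases. The GH16 genes with the Pfam entry PF03935 encode proteins of the Skn1/Kre6 kind, which *Saccharomyces cerevisiae* needs to make β-1,6-glucan.

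The libraries held 9541028 to 15331728 counts, and the lowest level of any gene was between 1.01 and 1.06 CPM (counts scaled to the library total) in each library. A gene with no transcripts in T0 or in BIN is therefore missing from the table. Correlations of log2 CPM were 0.979 to 0.992 among T0 libraries, 0.993 to 0.995 among BIN libraries and 0.842 to 0.855 between the groups. The counts of the 31 genes ranged from 15 for g3000 to 69686 for g949 in a single library. Levels are CPM normalized by the TMM method, and levels of different genes are compared in TPM, the transcript level after division by gene length. Positive log2 fold changes mean a higher level in BIN. A call required a Benjamini-Hochberg adjusted p of at most 0.05 over all genes in the edgeR quasi-likelihood test and a log2 fold change of 1 or more up or down. In bulk mycelium, fewer hyphae that express a gene and less of its RNA per hypha cannot be told apart.

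Genes of the wall glucan families were called in both directions, and GH16, GH55 and GH71 each held genes of both kinds. Of the 31 genes, 8 were higher in BIN (25.8%), against 11.3% of all genes, and 4 were lower (12.9%), against 14.5% of all genes. In either direction 12 of the 31 genes were called, against 25.9% of all genes, and the other 19 were not called. The 8 higher genes were g949, g3042 and g6001 of GH16, g10572 of GH17, g634 and g249 of GH55, g8628 of GH5_15 and g11270 of GH71. The 4 lower genes were g5560 of GH16, g251 of GH55, g1405 of GH71 and g1211 of GH30_3.

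Without the fold threshold, 16 of the 31 genes were higher at the same adjusted p, beside 35.2% of all genes, and 8 were lower, beside 35.9%. All 3 BIN libraries lay above all 3 T0 libraries for 16 genes, beside 37.6% of all genes, and below them for 10, beside 38% of all genes, while the libraries of 5 genes overlapped. Over all genes tested, 75.6% had libraries that did not overlap. The median log2 fold change of the 31 genes was 0.48, against -0.00 for all genes and 0.41 for the 96 measured genes of all other GH families. Of those 96 genes, 30 were higher (31.2%) and 13 were lower (13.5%), so the shares of the wall glucan families were near those of glycoside hydrolases as a whole.

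**Figure D1:**
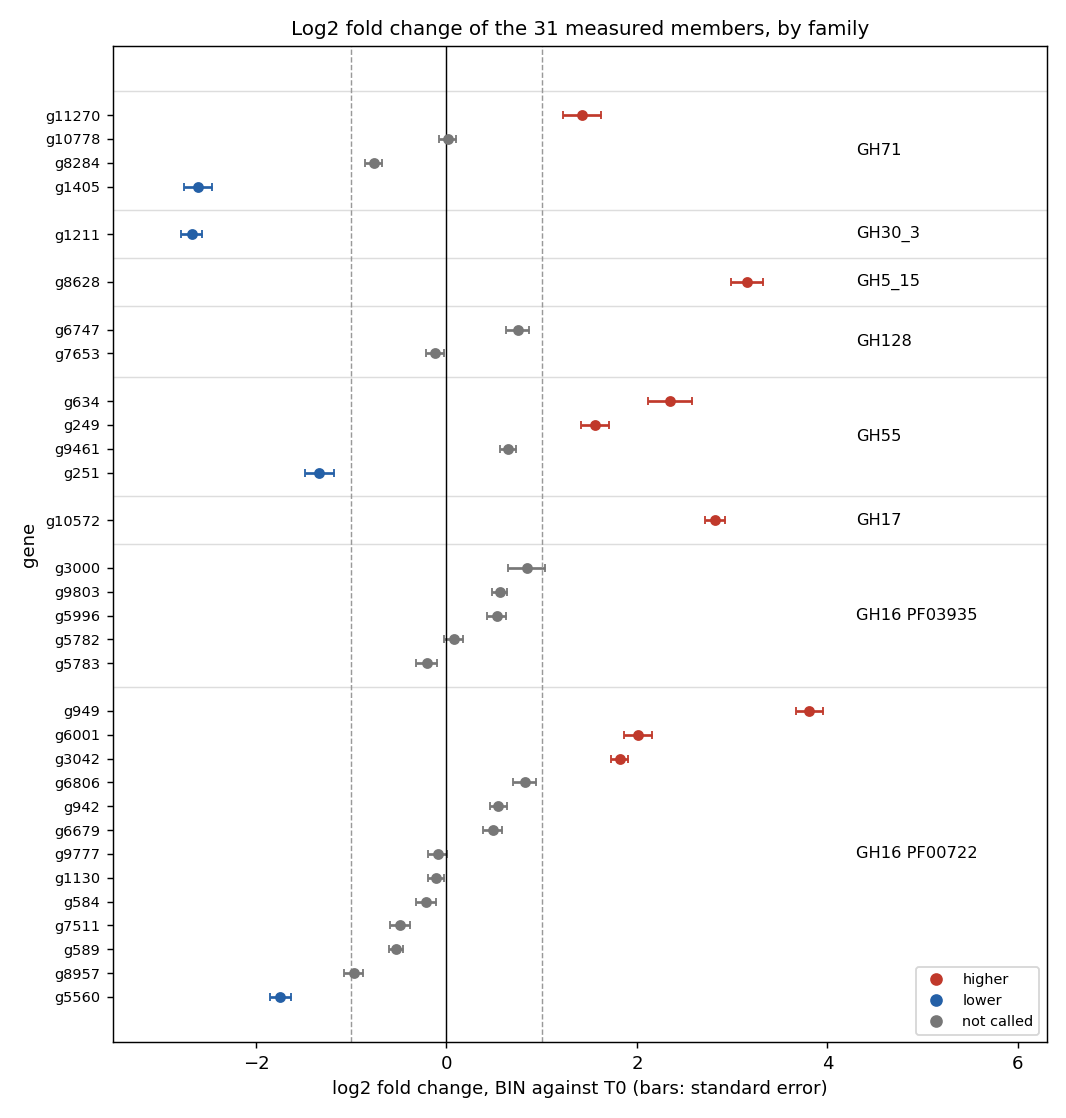
Log2 fold change of BIN against T0 for each of the 31 measured genes, grouped by family, with the standard error as a bar and the call by colour. The values run from -2.68 for g1211 to 3.81 for g949, and GH16, GH55 and GH71 each hold genes called in both directions.

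GH16 was the largest family, and 14 of its 18 genes were not called. The gene with the highest level in BIN was g949, which the study's table describes as a putative endo-1,3-β-glucanase. Its level was 310, 362 and 332 CPM in T0 replicates 1, 2 and 3 and 4571, 4461 and 5046 CPM in BIN replicates 1, 2 and 3. Every BIN library was thus more than an order of magnitude above every T0 library. The means were 335 ± 26.0 CPM in T0 and 4693 ± 311 CPM in BIN (SD, 3 libraries each), a 14.0-fold difference with a log2 fold change of 3.81 (SE 0.14, edgeR adjusted p = 6.05e-08). Ranked by mean TPM among the 10015 genes, g949 was at position 719 in T0 and at position 14 in BIN, at 218 ± 35.0 and 4111 ± 231 TPM (SD, n = 3 each).

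A pair of less abundant GH16 genes with the same Pfam entry, PF00722, also rose. The gene g3042 had 84.2, 85.2 and 80.2 CPM in T0 and 325, 279 and 276 CPM in BIN, so that the lowest BIN library was well above the highest T0 library. Its log2 fold change was 1.82 (SE 0.09, edgeR adjusted p = 2.52e-07). The gene g6001 was near the lower end of the table in T0, with 6.49, 5.50 and 6.24 CPM, and had 22.5, 21.8 and 28.6 CPM in BIN. Its log2 fold change was 2.01 (SE 0.15, edgeR adjusted p = 2.8e-06). Both are described as putative endo-1,3-β-glucanases, as is the only GH16 gene called lower.

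That gene, g5560, was the second most abundant GH16 gene of the pre-inoculum. It had 855, 724 and 782 CPM in T0 and 217, 237 and 252 CPM in BIN, with all BIN libraries far below all T0 libraries. The mean was 3.34-fold higher in T0, and the log2 fold change was -1.74 (SE 0.11, edgeR adjusted p = 1.08e-06). The most abundant GH16 gene of T0, g8957, lay just short of the fold threshold, with 1183, 1230 and 1138 CPM in T0 and 592, 582 and 634 CPM in BIN. The groups did not overlap, but its log2 fold change of -0.97 (SE 0.10, edgeR adjusted p = 2.87e-05) was not a call. It became one without T0 replicate 3 (-1.001) or without BIN replicate 3 (-1.01), so whether it counts as lower rests on single libraries.

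The other 8 measured PF00722 genes of GH16 had log2 fold changes between -0.53 and 0.82. At the negative end, g589 had -0.53 and g7511 had -0.48, both with an edgeR adjusted p under the threshold and without an overlap of the libraries. The genes g584 (-0.21), g1130 (-0.11) and g9777 (-0.09) were above the p threshold, and the sign of all 3 turned on the TPM scale. The genes g6679 (0.48), g942 (0.55) and g6806 (0.82) were under the p threshold with every BIN library above every T0 library. With a trend on gene length removed, g6679 was at 0.07 and above the p threshold (edgeR adjusted p = 0.593). In that fit g942 (0.56) and g6806 (0.65) stayed under it. Over the 13 PF00722 genes the median log2 fold change was -0.09, with 3 genes higher and 1 lower.

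None of the 5 Skn1/Kre6-type genes of GH16 was called. The most abundant of them, g5783, had 252, 329 and 274 CPM in T0 and 237, 252 and 253 CPM in BIN, and its libraries overlapped at a log2 fold change of -0.21 (SE 0.11, edgeR adjusted p = 0.117), which was 0.24 on the log2(TPM + 1) scale. Overlapping libraries were also found for g5782, at 0.08, which was -0.11 with a trend on gene length removed. The genes g5996 (0.53), g9803 (0.56) and g3000 (0.84) were higher at the adjusted p but below the fold threshold. With that trend removed, g5996 was at 0.29 and g9803 at 0.27, while g3000 was at 1.009. The gene g3000 was the least abundant of all 31 genes, at 1.55 ± 0.161 CPM in T0 and 2.75 ± 0.147 CPM in BIN (SD, 3 libraries each).

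**Figure D2:**
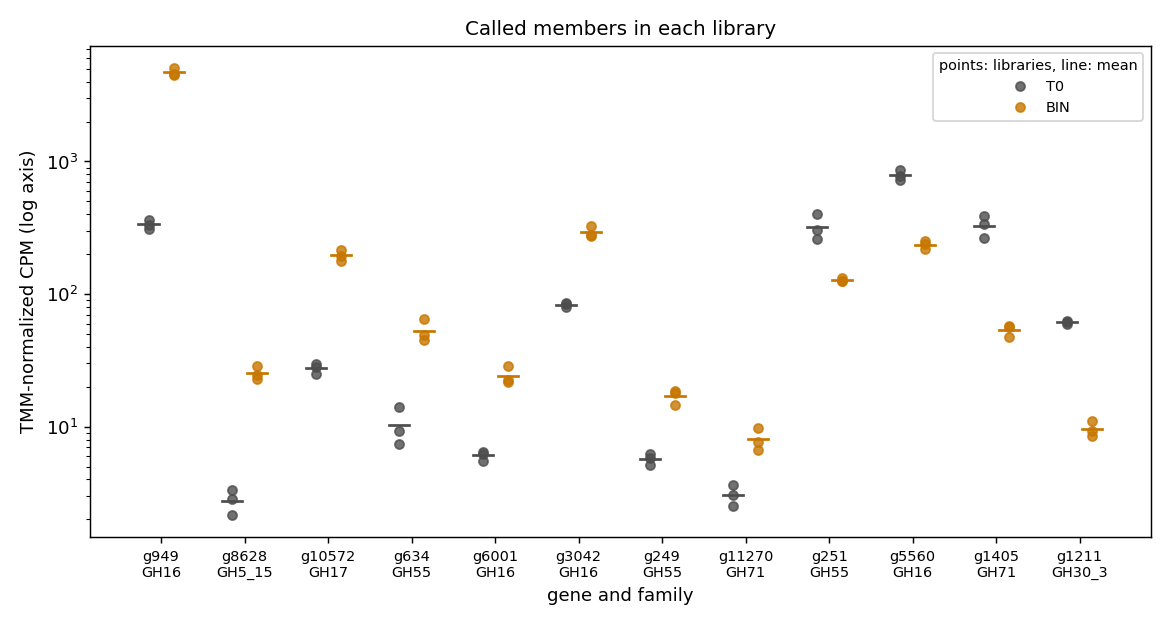
TMM-normalized CPM on a log axis for the 12 called genes, with 1 point per library and a line at the mean of each group of 3. The 3 BIN points of every gene lie wholly above or wholly below its 3 T0 points, and g949 is at 4461 to 5046 CPM in BIN against 310 to 362 CPM in T0.

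The make-up of the GH16 transcripts differed between the conditions, with several leading genes in T0 and a single one in BIN. Shares of the summed GH16 TPM were used for this, since a share within 1 library does not depend on how libraries are scaled. In T0, g8957 held 27.2% ± 0.752 of the sum, g5560 19.0% ± 1.495, g584 11.9% ± 0.443, g1130 8.22% ± 0.363 and g949 7.67% ± 0.637 (SD, n = 3). In BIN, g949 held 59.5% ± 0.826, followed by g8957 with 7.67% ± 0.0508, g584 with 5.66% ± 0.292 and g6679 with 5.15% ± 0.192 (SD, n = 3). The gene g949 thus went from the fifth place to the first, and g5560 from the second to the seventh, with 3.15% ± 0.167 in BIN (SD, n = 3). The share of g949 was 6.98%, 8.23% and 7.81% in the 3 T0 libraries and 59.2%, 58.8% and 60.4% in the 3 BIN libraries, far beyond the spread within either group. With 3 against 3 libraries a two-sided permutation test cannot go below p = 0.1, so no test is given for shares and sums.

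The summed TPM of GH16 was 2832 ± 251 in T0 and 6907 ± 294 in BIN (SD, 3 libraries each). The ratio was 2.44 in TPM and 1.80 in CPM. Without g949 the sums were 2614 ± 219 and 2796 ± 66.2 TPM, a ratio of 1.07, and the T0 and BIN libraries overlapped. On the CPM scale the sum without g949 was lower in every BIN library than in any T0 library. The GH16 means there were 4684 CPM in T0 and 8454 CPM in BIN with g949 included. Among these other 17 genes g3042 and g6001 were called higher and g5560 lower, and g8957, at a log2 fold change of -0.97, fell just short of a call. Over all 31 genes the sum was 4162 ± 300 TPM in T0 and 9091 ± 248 TPM in BIN (SD, 3 libraries each), and g949 alone held 5.22% ± 0.503 and 45.2% ± 1.29 of it. Without g949, the remaining 30 genes summed to 3944 ± 268 TPM in T0 and 4980 ± 19.9 TPM in BIN, a ratio of 1.26 with no overlap of the libraries. That direction turned on the CPM scale, where these 30 genes summed to less in every BIN library than in any T0 library. The means over all 31 genes were 6873 CPM in T0 and 10807.5 CPM in BIN, of which g949 made up 335 and 4693 CPM. The median log2 difference of all genes was 0.40 on the log2(TPM + 1) scale, so ratios of TPM should be read against that shift.

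**Figure D3:**
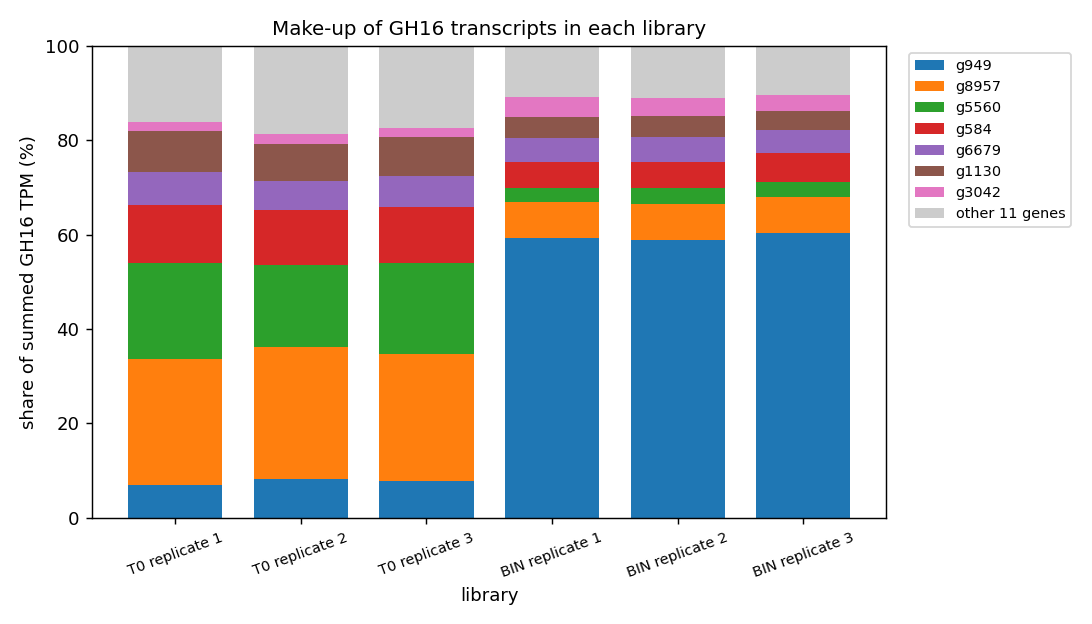
Share of the summed GH16 TPM held by each of the 7 genes leading in BIN and by the other 11 genes together, in percent, for each of the 6 libraries. The bar of g949 goes from 6.98% to 8.23% in the T0 libraries to 58.8% to 60.4% in the BIN libraries.

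The single GH17 gene, g10572, was higher in BIN. GH17 holds β-1,3-glucanases and, in yeast, the glucanosyltransferase Bgl2, and the study's table describes g10572 as a putative glucan 1,3-β-glucosidase. It had 28.1, 25.0 and 29.9 CPM in T0 and 216, 177 and 194 CPM in BIN. The BIN libraries lay 7.08-fold above T0 on average, with a log2 fold change of 2.82 (SE 0.11, edgeR adjusted p = 6.05e-08).

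In GH55, whose enzymes remove glucose or short sugars from β-1,3-glucan, the genes moved in opposite directions. The most abundant gene in both conditions, g251, fell from 259, 404 and 303 CPM in T0 to 125, 126 and 133 CPM in BIN. T0 replicate 2 was the highest library, but all 3 T0 libraries were above all BIN libraries, with a log2 fold change of -1.33 (SE 0.15, edgeR adjusted p = 5.37e-05). On the log2(TPM + 1) scale its difference was -0.86, and the call was lost there. The gene g634 rose from 7.40, 14.0 and 9.28 CPM to 65.0, 44.8 and 49.3 CPM. It had the widest spread between replicates of all 31 genes in both groups, with a coefficient of variation of 33.3% in T0 and 20.1% in BIN, and its log2 fold change of 2.35 (SE 0.24, edgeR adjusted p = 5.03e-05) stayed a call with each library left out in turn.

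The gene g249, with 5.81, 6.27 and 5.13 CPM in T0 and 18.5, 17.8 and 14.6 CPM in BIN, also rose, with a log2 fold change of 1.56 (SE 0.15, edgeR adjusted p = 1.23e-05). For g9461 the BIN libraries were above the T0 libraries as well, but the log2 fold change of 0.65 (SE 0.09, edgeR adjusted p = 0.000132) was not a call. The summed TPM of GH55 was 135 ± 39.5 in T0 and 134 ± 7.17 in BIN (SD, 3 libraries each), with overlapping libraries. On the CPM scale, not divided by length, the family total was lower in every BIN library, at 257 ± 13.1 against 376 ± 78.3 (SD, 3 libraries each). The make-up of the family also differed. The share of g251 went from 83.5% ± 1.89 to 44.6% ± 3.60, and that of g634 from 3.67% ± 0.451 to 25.8% ± 3.50 (SD, n = 3 each). Without g251, the other 3 genes summed to 21.8 ± 3.70 TPM in T0 and 74.6 ± 8.90 TPM in BIN (SD, 3 libraries each).

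GH128, a family of endo-β-1,3-glucanases first known from the shiitake mushroom *Lentinula edodes*, had no called gene but held one of the most abundant transcripts of the set. The gene g6747 had 849, 658 and 742 CPM in T0 and 1326, 1231 and 1217 CPM in BIN, with no overlap and a log2 fold change of 0.75 (SE 0.12, edgeR adjusted p = 0.000516). By mean TPM it stood at position 260 of all genes in T0 and at position 80 in BIN, next after g949 among the 31 genes in BIN. Its difference was 1.19 on the log2(TPM + 1) scale, where it would be called. The second gene, g7653, had overlapping libraries, with 408, 469 and 454 CPM in T0 and 385, 413 and 429 CPM in BIN and a log2 fold change of -0.12 (SE 0.10, edgeR adjusted p = 0.301), a sign that turned on the TPM scale.

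The β-1,6-glucanase families each had a single gene, and these moved in opposite directions. The GH5_15 gene g8628, whose annotation is an endo-1,6-β-glucosidase, was among the least abundant of the set in T0. It had 2.16, 3.31 and 2.84 CPM in T0 and 28.5, 24.8 and 23.0 CPM in BIN, a 9.17-fold difference and a log2 fold change of 3.16 (SE 0.17, edgeR adjusted p = 3.41e-07). The GH30_3 gene g1211 fell from 59.0, 61.6 and 63.0 CPM in T0 to 8.44, 9.22 and 11.01 CPM in BIN. The mean was 6.41-fold higher in T0, with a log2 fold change of -2.68 (SE 0.11, edgeR adjusted p = 9.03e-08). In TPM, g1211 was above g8628 in T0, at 31.7 ± 3.10 against 1.55 ± 0.441, and below it in BIN, at 6.68 ± 0.887 against 19.0 ± 2.10 (SD, n = 3 each). The study's tables carry 2 annotations for g1211, a gene ontology term for an endo-1,6-β-glucosidase and the description endo-β-xylanase, and the activity of the protein was not measured in these libraries.

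**Figure D4:**
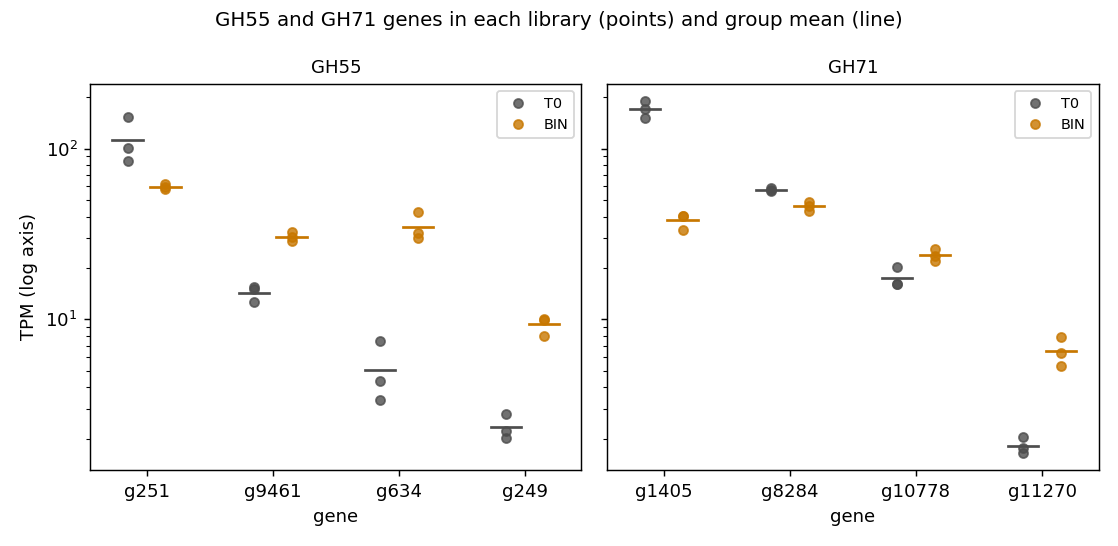
TPM on a log axis of the 4 GH55 genes and the 4 GH71 genes, with 1 point per library and a line at the mean of each group of 3. In GH55, g251 falls while g634 and g249 are higher in BIN, and in GH71 the mean of g1405 goes from 170 TPM in T0 to 38.1 TPM in BIN.

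GH71, the α-1,3-glucanase family, was led in T0 by g1405, which fell on bagasse. It had 385, 264 and 336 CPM in T0 and 57.8, 56.0 and 47.9 CPM in BIN, a mean 6.09-fold higher in T0 and a log2 fold change of -2.61 (SE 0.15, edgeR adjusted p = 7.14e-07). The gene is annotated with the α-1,3-glucanase term of its family, while its description in the study's table of called genes is α-galactosidase. The gene g8284 also lay lower in every BIN library, with 152, 134 and 156 CPM in T0 and 82.4, 85.1 and 92.3 CPM in BIN. Its log2 fold change of -0.76 (SE 0.09, edgeR adjusted p = 4.18e-05) did not reach the fold threshold, although it did (-1.03) once a trend on gene length was removed.

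The gene g10778 had overlapping libraries and a log2 fold change of 0.01 (SE 0.09, edgeR adjusted p = 0.9), and its sign turned in several alternatives. The least abundant GH71 gene, g11270, rose from 3.64, 2.54 and 3.05 CPM to 6.70, 7.73 and 9.85 CPM, with a log2 fold change of 1.42 (SE 0.20, edgeR adjusted p = 0.000193). It was no longer called when edgeR's glmTreat tested the change against the threshold itself (adjusted p = 0.0542). That stricter test called 7.36% of all genes higher and 9.15% lower, and 7 and 4 of the 31 genes. The summed TPM of GH71 was 247 ± 16.8 in T0 and 114 ± 2.69 in BIN (SD, 3 libraries each), and without g1405 it was 76.7 ± 2.49 and 76.1 ± 5.69 TPM. On the CPM scale the family summed to 528 ± 69.8 in T0 and 198 ± 5.64 in BIN (SD, 3 libraries each). There the sum without g1405 was also lower in every BIN library than in any T0 library. The share of g1405 went from 68.8% ± 3.14 to 33.4% ± 3.91 and that of g8284 from 23.4% ± 1.88 to 40.1% ± 1.55 (SD, n = 3 each), so that g8284 led the family in BIN.

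Several of the genes carry close numbers in the study's gene list, at most 7 apart, and 1 such pair was called in opposite directions. These were the GH55 genes g249 and g251, with log2 fold changes of 1.56 and -1.33. In other pairs both genes were higher in BIN but only 1 was called, with 0.55 and 3.81 for the GH16 genes g942 and g949 and 0.53 and 2.01 for the GH16 genes g5996 and g6001, while g584 and g589 (-0.21 and -0.53) and g5782 and g5783 (0.08 and -0.21) differed little from each other. Gene positions were not used here, so whether the pairs lie side by side is not given. How reads were counted is not given in the sources used here, and reads on near-identical copies could be split between genes of a family.

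Predicted signal peptides, which direct a protein to secretion, were marked in the study's table of called genes for all 4 genes called lower and for 1 of the 8 called higher, g949. A second table of the study, on proteins found outside the cells, marks one for g249, for g1211 and for g635, which has no counts here. The first table leaves g249 unmarked, so a missing mark there is not a prediction that a signal peptide is absent. The genes of the first table were picked on these same libraries, and its marks are incomplete. These marks therefore describe the called genes and are no independent evidence of a difference between the directions.

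The other genes of wall synthesis and turnover were counted for comparison. Both GT48 genes, the β-1,3-glucan synthases, lay higher in every BIN library without being called, with log2 fold changes of 0.55 (SE 0.12, edgeR adjusted p = 0.00221) for g194 and 0.87 (SE 0.11, edgeR adjusted p = 9.79e-05) for g6532. Of the 9 genes listed as chitin synthases, 3 were higher (33.3%, against 11.3% of all genes) and none was lower in the edgeR test. The list holds GT2 genes with the Pfam entry PF03142 or PF08407 or with the gene ontology term for chitin synthase. The 3 higher genes carry PF13632 or PF13641 and are listed by that term alone, and no gene with PF03142 or PF08407 was called. The gene g6521 had a log2 fold change of 1.27, g7017 of 1.29 and g9419 of 1.48, and g11653 was at -0.94. These are long genes, with a median 4.78 times that of all genes for GT48 and 3.09 times for the chitin synthases. Log2 fold changes correlated with gene length across the 10015 genes (Spearman rho 0.33, genes sharing the same libraries). With the trend on length removed, the median of the 2 GT48 genes was 0.01, and none of the chitin synthases was higher and 1 was lower.

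The 31 glucan hydrolase genes had a median length 1.21 times that of all genes, and their log2 fold changes did not follow length among themselves (Spearman rho 0.02 across the 31 genes). With the trend removed, their median log2 fold change went from 0.48 to 0.07, with 9 genes higher and 5 lower, against 11.2% and 11.5% of all genes, and beside 24 and 14 of the 96 other GH genes. The small upward median of the set therefore depends on whether this trend is removed, while all 12 of its called genes kept their call. The removal takes out any difference between BIN and T0 that is tied to length, and the source of the trend was not tested. Among chitin hydrolases, 3 of 9 GH18 genes were higher and 3 lower, and of 3 GH20 genes 1 was lower. Of the 4 measured GH5_9 genes 1 was higher and 1 lower. Among these, g3550 (-0.29) and g4121 (-2.47, edgeR adjusted p = 1.07e-05) share the glucan exo-1,3-β-glucosidase term with genes of GH55.

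**Figure D5:**
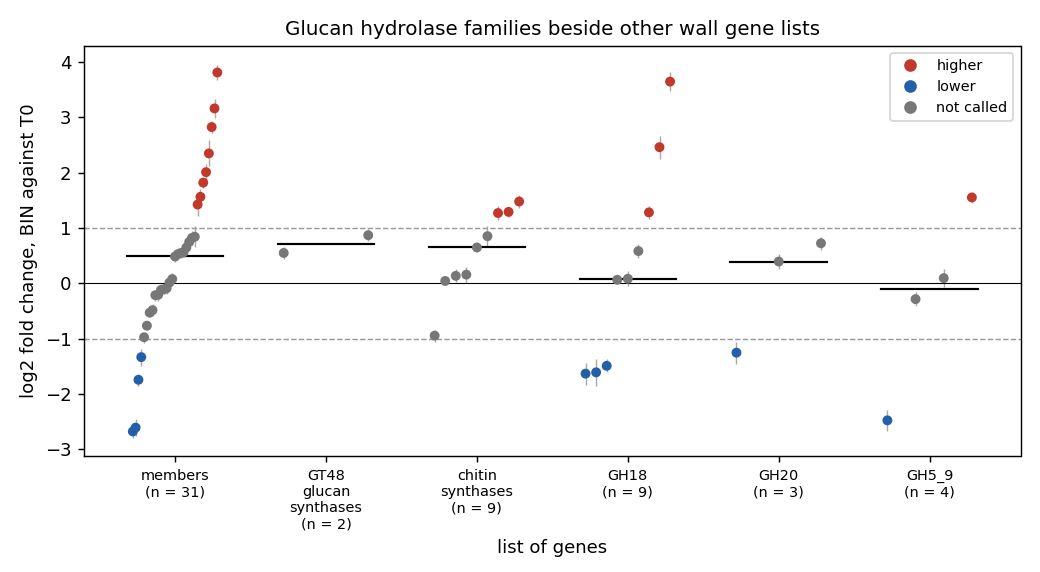
Log2 fold change of BIN against T0 for each gene of the glucan hydrolase families and of other lists of wall genes, with 1 point per gene, the standard error as a bar, the median of each list as a line and the call by colour. GT48 lies between 0.55 and 0.87 with no called gene, while GH18 holds 3 higher and 3 lower genes.

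Replicates of the 31 genes were close to each other. The median coefficient of variation over the 31 genes was 8.03% in T0 and 6.45% in BIN, against 10.3% and 6.73% over all genes tested. The call of 23 of the 31 genes, and of 10 of the 12 called genes, was the same in each of 18 alternative analyses. Among these, the fit without the filter repeated the edgeR test, and unadjusted p could not take a call away. The exceptions among the called genes were g251 on the TPM scales and g11270 against the threshold itself.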

How the data were processed

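The authors trimmed the reads with Trimmomatic 0.32, mapped them with TopHat2 to their assembly of the strain and deposited raw counts for each predicted gene. The deposited TPM values equal those counts over a gene length, with the same total in every library, and relative gene lengths were taken from the ratio of counts to TPM. Counts were compared between BIN and T0 over all 6 libraries by edgeR 4.0.16 (glmQLFTest after a robust glmQLFit; R 4.3.3), with TMM normalization, no replicate block and Benjamini-Hochberg adjustment over 10015 genes. The filter on low counts removed no gene. Families, annotations and signal peptides were read from the study's supplementary tables, whose other columns of fold changes were not used. Of the gene numbers, 0 matched the reference gene list of another strain, so positions and sequences are not given. Members and lists of genes were chosen with earlier results of these data known. All members were named, and those called, with the most abundant of each family, were given by library. The script was tested on simulated data. The alternatives were DESeq2 1.42.0, RLE (relative log expression) or no scaling factors in place of TMM, no filter, a mean of 1 TPM, unadjusted p, glmTreat, a replicate block, limma 3.58.1 on log2(TPM + 1) and log2(TPM + 0.1), a lowess trend (span 0.3) on length removed without and with the block, and each library left out.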

Additional observations from a re-analysis of the deposited data

How the results depend on the processing

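Of the 31 genes, 23 kept their call in all 18 alternatives, of which the fit without the filter repeated the edgeR test. The call of g251 was lost on log2(TPM + 1) (-0.86) and log2(TPM + 0.1) (-0.87), and that of g11270 with glmTreat (adjusted p = 0.0542). Genes just under the threshold passed it in some settings, namely g6747 (1.19 on both TPM scales), g6806 (1.22 and 1.27) and g9461 (1.04 and 1.08) on TPM, g3000 on log2(TPM + 0.1) (1.21) and with the trend on length removed (1.009, and 1.001 with the block), g8284 with that trend removed (-1.03, and -1.02 with the block), and g8957 without T0 replicate 3 (-1.001) or without BIN replicate 3 (-1.011).

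The counts of the 31 genes were 11 higher and 3 lower on log2(TPM + 1), 12 and 3 on log2(TPM + 0.1), 9 and 5 with the trend on length removed, and 7 and 4 with glmTreat, against 8 and 4 in the edgeR test. GH16 had 5 higher genes on log2(TPM + 0.1) and 1 to 2 lower genes when each library was left out. Over all genes, glmTreat called 737 higher and 916 lower, log2(TPM + 1) 2136 and 730, log2(TPM + 0.1) 2409 and 769, and the fit with the trend on length removed 1117 and 1149. The share of calls that were higher was 43.8% in the edgeR test, 54.8% with library size alone (1439 higher, 1185 lower), and 74.5% and 75.8% on the TPM scales. All genes had a median of 0.13 with library size alone, 0.40 on log2(TPM + 1) and 0.43 on log2(TPM + 0.1).

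The log2 ratios of summed TPM were 1.13 for all 31 genes, 1.29 for GH16, -0.00 for GH55, -1.11 for GH71 and 0.96 for GH128. With sums of TMM-normalized CPM they were 0.65, 0.85, -0.55, -1.41 and 0.48. Without the most abundant gene of each, the log2 ratios of summed TPM were 0.34, 0.10, 1.78, -0.0111 and 0.31. The GH55 ratio ranged from -0.16 to 0.26 when each library was left out. Genes that were not called and lay near 0 turned sign. On log2(TPM + 1) and log2(TPM + 0.1), g584 was at 0.22 in both, g1130 at 0.33 in both, g5783 at 0.24 in both, g7653 at 0.32 in both, and g9777 at 0.33 and 0.34. With library size alone, g1130 was at 0.0325, g7653 at 0.0180 and g9777 at 0.0490. With the trend on length removed, without and with the block, g5782 was at -0.11 in both, g9777 at 0.0691 and 0.0685 and g10778 at -0.32 in both. The values of g10778 ranged from -0.0575 to 0.0620 when each library was left out. The cause of these differences between settings was not tested beyond what each setting changes.

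Samples with the same replicate number did not deviate together (correlations of 0.03, 0.01 and -0.10), so the numbers were not taken to pair the samples. With the replicate block, 1146 genes were higher and 1441 lower, and 8 and 4 of the 31 genes. The 3 libraries per group and a minimum of about 1 CPM limit the precision for the least abundant genes.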
